A study of Mus musculus with 2 samples.

Results

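The 7 macrophage genes described here are Gpnmb, Trem2, Tyrobp, Spp1, Lgals3, Cd9 and Itgax. They are commonly listed together as genes of lipid-associated macrophages, cells that gather around dying fat cells, plaques and damaged myelin and take up their lipids. They were chosen by name, as the genes whose name in the scanner files is 1 of these 7, and they are 7 of 31829 gene names. Each has 1 probe in 1 spot on each of the 2 arrays.

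The cells were RAW264.7, a mouse macrophage-like line transformed by a leukaemia virus. The control sample is labelled as control in genotype and the other sample as Lamtor1 knockdown, with 1 array each. Lamtor1 encodes the membrane anchor of Ragulator, which holds the Rag GTPases and through them the kinase complex mTORC1 on the lysosome, and the series asks about the activity of the transcription factor TFEB in cells that lack this complex. The labels describe the same steps for both samples, namely a lentiviral mixture of 2 short-hairpin vectors against Lamtor1 and then limiting dilution, so the treatment of the control cells is unknown here, as is whether a sample is 1 clone. With 1 array per group there was no test and no p-value, and every difference describes these 2 arrays.

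Gpnmb encodes a glycoprotein of lysosomal and melanosomal membranes that is also found at the cell surface, and it is a known target of the MiT/TFE transcription factors to which TFEB belongs. Trem2 encodes a surface receptor for lipids, lipoproteins and cell debris. It has no signalling tail of its own and pairs with the adaptor DAP12, the product of Tyrobp, whose ITAM (an activation motif with a pair of tyrosines) recruits the kinase Syk. Spp1 encodes osteopontin, a secreted ligand of integrins and CD44. Lgals3 encodes galectin-3, a sugar-binding protein that marks activated macrophages and collects on damaged lysosomes. Cd9 encodes a tetraspanin, and Itgax encodes CD11c, the integrin chain that pairs with the product of Itgb2.

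The signal of each gene rests on a single designed 60-base oligonucleotide, and 4 of them are shown here, 5′ to 3′, because they say which part of each transcript was read. Those of Trem2 and Lgals3 are given as 30-base parts. In the Trem2 and Lgals3 parts the capitals mark a polyadenylation signal hexamer, which stands 15 and 17 bases from the end of those probes. In the Tyrobp probe the capitals mark a tyrosine codon, the next pair of codons and a leucine codon, the spacing of an ITAM arm, in a frame with no stop codon. The Spp1 probe is known coding sequence that begins within the integrin-binding RGD motif of osteopontin. Nothing is marked in the Spp1 sequence.
Trem2 (30 bases): tgcactttggacATTAAAcattctccacac
Lgals3 (30 bases): agacatccatttAATAAAgtctcatgctga
Tyrobp (60 bases): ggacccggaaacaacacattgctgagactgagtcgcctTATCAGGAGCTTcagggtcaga
Spp1 (60 bases): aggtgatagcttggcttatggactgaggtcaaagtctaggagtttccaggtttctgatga

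Probe positions are those of the files, in mm9. The Gpnmb probe lies at chr6:49006386-49006445, the Trem2 probe at chr17:48491537-48491596 and the Spp1 probe at chr5:104868502-104868561. The Lgals3 probe lies at chr14:48005414-48005473 and the Itgax probe at chr7:135294052-135294111. The Cd9 probe is on the minus strand at chr6:125410387-125410446, and the others are on the plus strand. The Tyrobp probe is listed over 1728 bases, at chr7:31200651-31202378, so its 60 bases span a splice junction. The G and C content of the 7 probes ran from 35.0% for Lgals3 and Cd9 to 53.3% for Tyrobp.

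A level is a log2 signal minus that of the array's 75th percentile, a difference is knockdown minus control, and a gene was counted at a fold of 2 or more, a log2 difference of 1. Lamtor1 was 23.1-fold lower in the sample labelled as knockdown, with levels of 4.10 in the control and -0.43 in the knockdown. All 7 members were well above background on both arrays, with raw spot signals 65.2 to 10026 times the local background, and none was saturated. The scanner's error model gave each of these signals an error of 10.0%, which makes the standard error (SE) of a member's log2 difference 0.20. This error covers the spot and the scan, not cultures or labelling. Repeated spots of 1 probe, for 214 probes bright enough on both arrays, differed less, with a median SD of 0.044 in log2.

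One of the 7 genes passed 2-fold. Gpnmb was 8.80-fold higher in the knockdown, the other 6 stayed within 2-fold, and of these Trem2, Cd9, Tyrobp and Lgals3 lay above 0 and Spp1 and Itgax below it, Itgax turning above 0 when arrays were scaled by their medians. Of all 17515 measured genes, 8.7% were higher by 2-fold or more and 8.64% lower, and of all 21864 measured probes 8.46% were higher and 8.36% lower, so a count of 1 in 7 is not far from the share over all genes. In a bulk sample, fewer cells of a type and less RNA per cell cannot be told apart. The median log2 difference of the 7 members was 0.52, a fold of 1.43, against -0.07 for all measured genes.

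Gpnmb had a processed signal of 28289 in the control cells and 266557 in the knockdown. Its level went from 4.59 on the control to 7.73 on the knockdown, a log2 difference of 3.14 ± 0.20 (scanner SE), and the range of 1.96 SE to each side ran from 6.67-fold to 11.6-fold. It was already a strongly expressed gene in the control cells. Counted from the highest difference it ranked 325 of 17515, with 1.85% of the measured genes above it. Of the 1218 measured genes with a mean level of 5 or more, 2.63% were higher by 2-fold or more and 0.493% lower. Gpnmb belongs to them through its knockdown level alone, so its place among them is not used.

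The receptor and its adaptor were both moderately higher. Trem2 had a processed signal of 79323 in the control and 148474 in the knockdown, levels of 6.08 and 6.89, and a log2 difference of 0.81 ± 0.20, or 1.75-fold. Tyrobp had signals of 112755 and 172658, levels of 6.59 and 7.10, and a difference of 0.52 ± 0.20, or 1.43-fold. The values of the pair lay 0.29 apart on the log2 scale with a scanner SE of 0.29, and over 1.96 such SE would have been needed to pass that error. The spread of repeated spots is smaller, and how far the pair would differ between cultures was not measured. Over all measured genes, 10.8% had a higher difference than Trem2 and 16.2% a higher one than Tyrobp. Over the bright genes with a mean level of 5 or more these shares were 5.09% and 7.31%.

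The remaining surface and lysosome-related members followed closely. Cd9 had signals of 39103 and 60421, levels of 5.06 and 5.59, and a difference of 0.53 ± 0.20, or 1.44-fold. Lgals3 had signals of 146478 and 212336, levels of 6.97 and 7.40, and a difference of 0.44 ± 0.20, or 1.35-fold. None of the 6 gaps among Trem2, Cd9, Tyrobp and Lgals3 exceeded 1.96 times its scanner SE, which does not show that they are alike. Each of the 4 differences, as scaled here, was more than 1.96 scanner SE from 0, with Lgals3 the nearest, at a lower end of 0.04. The SE leaves out the choice of scaling. Scaled by the 75th percentile of spots above background on both arrays, Lgals3 was at 0.39, within 1.96 scanner SE of 0.

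Spp1 went the other way. Its signal was 39193 in the control and 23577 in the knockdown, its level went from 5.06 to 4.23, and its difference was -0.83 ± 0.20, or 1.78-fold lower. Counted from the lowest difference it ranked 1925 of 17515. The gap between Gpnmb and Spp1, genes often named side by side as lipid-associated macrophage markers, was 3.97 on the log2 scale with a scanner SE of 0.29, a ratio of 15.7. Spp1 lay more than 1.96 scanner SE below every other member.

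Itgax showed nearly the same signal on both arrays. It had a signal of 1924 in the control and 2004 in the knockdown, levels of 0.72 and 0.68, and a difference of -0.04 ± 0.20, with a range of -0.44 to 0.36 at 1.96 SE. Its sign changed with the scaling, to 0.05 when the arrays were scaled by their medians, so no direction is given. The gene for its partner chain, Itgb2, had a log2 difference of 0.39.

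**Figure D1:**
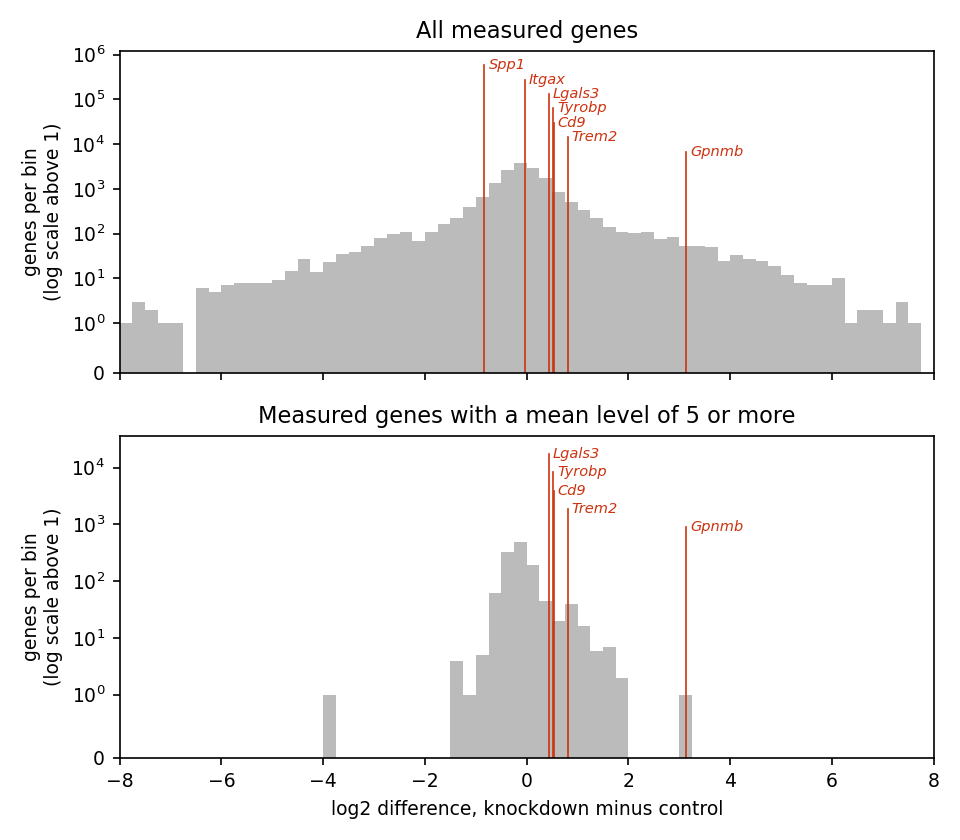
Number of genes in bins of 0.25 of the log2 difference, knockdown minus control, for all measured genes (upper panel, 15 of them outside the plotted range) and for those with a mean level of 5 or more (lower panel), on a count axis that is logarithmic above 1; red lines mark the members, in the lower panel the 5 that reach this level. Gpnmb, at 3.14, is in the lower panel through its knockdown level alone, while Trem2, Cd9, Tyrobp and Lgals3 lie between 0.44 and 0.81 in both panels.

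No setting of the processing moved a member across 2-fold. Over 11 alternatives Gpnmb ran from 8.54-fold to 9.38-fold higher, Trem2 from 1.70-fold to 1.87-fold, Tyrobp from 1.39-fold to 1.55-fold, and Cd9 from 1.40-fold to 1.54-fold. The log2 difference of Lgals3 ran from 0.39 to 0.58 and that of Spp1 from -0.87 to -0.74.

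**Figure D2:**
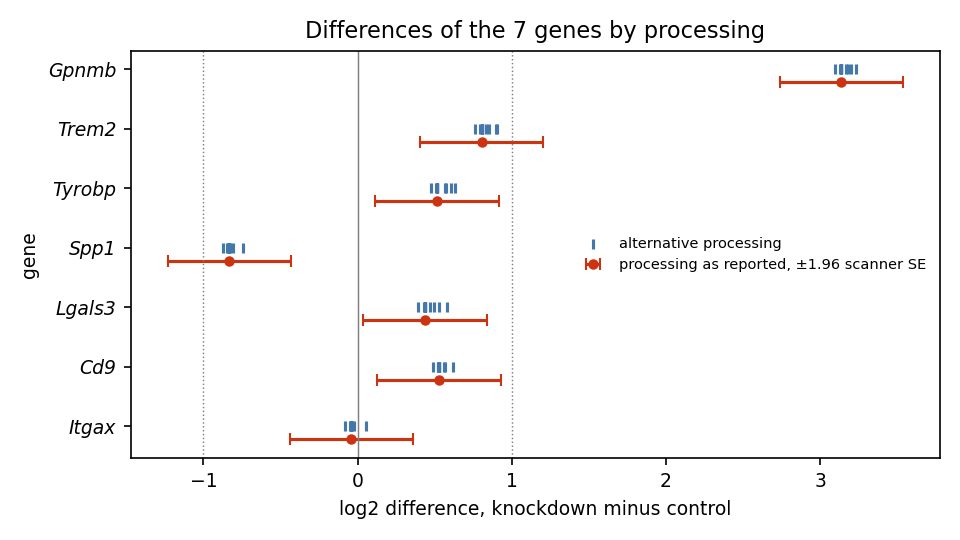
Log2 difference of each member, knockdown minus control, as reported (red circles, with bars of 1.96 scanner SE to each side) and under the 11 alternative settings (blue ticks); dotted lines mark 2-fold. The ticks of each gene lie within its bar, and Itgax is the only member whose ticks fall on both sides of 0.

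The 45 measured genes with probes within 2 Mb of the Gpnmb probe had a median log2 difference of -0.23, with 4 higher and 6 lower by 2-fold or more. Over all measured genes 8.7% were higher and 8.64% lower. The 56 around Trem2 had a median of -0.15 and the 110 around Tyrobp one of -0.18. Around Cd9 (60 genes), Lgals3 (28), Spp1 (22) and Itgax (119) the medians were 0.01, -0.0052, -0.06 and -0.18. These medians ran from -0.23 around Gpnmb to 0.01 around Cd9, and the median for chromosome 6, which holds both, was -0.08. A link between the members' differences and those of their neighbours was not tested.

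The promoter windows of RefSeq (GRCm38.p6, 250 bases before to 50 after each start) were searched for the core letters that TFEB and its relatives bind. The table held 7 windows for 6 of the 7 members, Spp1 having more than 1, and Tyrobp was not among them. The palindrome CACGTG, core of the motif in lysosomal genes, was in none of the 7 windows, as against 7.15% of all 32851 windows. CATGTG, the other core letters of MITF sites, read on both strands, was in 14.2% of all windows and in that of Cd9 alone among the members. The AP-1 letters TGACTCA, read on both strands and added to the search after the windows were seen, were in 5.20% of all windows and in those of Gpnmb and Itgax. The Cd9 and Gpnmb matches stand in capitals within 30 bases of their windows, the Cd9 match beginning 38 bases before the start and the Gpnmb match at position 9 after it.  A match describes letters only.
Cd9 (GRCm38.p6, chr6:125494780-125494809, minus strand): gcatccctccgCACATGcgcatagcagctg
Gpnmb (GRCm38.p6, chr6:49036515-49036544, plus strand): ccaggggcaagTGACTCAtgagcacgagtt

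The wider programme of lipid-associated and disease-associated macrophages held many genes past 2-fold. Of 45 listed genes outside the 7 members, 43 were measured. Among them 20 (46.5%) were higher by 2-fold or more, 5 (Cd36, Ank, Cst7, Psat1 and Axl) were lower (4 by bound and 4 with normexp, Axl being dim in the knockdown) and 18 lay between, where 8.7% of all measured genes were higher and 8.64% lower. The median was 0.93, against -0.07 for all measured genes. The differences of 5 of these genes were known when the list was written, and without them 15 of 38 (39.5%) were higher by 2-fold or more. Leaving them out does not make the list independent, since it was chosen with earlier results of these data known.

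By role, grouped after the values were seen, 4 of 10 genes of lipid uptake, storage and efflux were higher by 2-fold or more and 1 was lower. The shares over all measured genes were 8.7% and 8.64%. Genes named in this and the next paragraph beside Fabp4, Cd200r4, Cd36, Mmp12, Capg and Fth1 were picked with their values in view. Fabp4, a carrier of fatty acids, was the highest of the list, at 95.0-fold, from -2.01 to 4.56 (77.4-fold with normexp, another background correction). Cd36, the scavenger receptor for oxidised lipoproteins and fatty acids, had levels of 0.04 and -5.23 and was 38.7-fold lower (13.8-fold with normexp). The other carrier gene Fabp5 was 2.15-fold higher and Plin2, which coats lipid droplets, 2.03-fold. Lpl, the secreted lipase that is a standard marker of these cells, had a log2 difference of -0.73, and Apoe, a lipoprotein ligand of TREM2, one of -0.78. Spp1, Apoe and Lpl, 3 much-used markers grouped here with their values in view, were each lower by less than 2-fold. They are a minority, since 33 of the 43 measured list genes and 5 of the 7 members lay above 0.

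Lysosomal and protease-control genes of the list were past 2-fold in 7 of 11 cases, 6 higher and 1 lower. For this and the next role, the shares over all measured genes were 8.7% higher and 8.64% lower. Ctsd, the cathepsin D gene, was 3.78-fold and Cstb, a cathepsin inhibitor gene, 3.25-fold higher, and Atp6v0d2, a proton-pump subunit gene, was 15.8-fold higher. Cst7, a cystatin gene that is a standard marker of disease-associated microglia, was the 1 that was lower, at 3.14-fold. Of 14 secreted factors and surface receptors, 9 were higher by 2-fold or more and 1 was lower. Among them Mmp12, the macrophage elastase gene, was 29.9-fold higher (11.8-fold with normexp) and Cd200r4 was 65.3-fold higher (27.7-fold with normexp). Clec7a, the beta-glucan receptor dectin-1, was 2.28-fold higher. Where 1 of the arrays gave no signal well above background, the gene is called dim on that array and its fold is written as at least a value. That value takes the dim array at its lowest passing signal, or at the probe's own where higher. It holds under this choice only, and normexp gave smaller folds for some of these genes. The 1 that was lower, Axl, a receptor for dying cells, was dim in the knockdown and lower by at least 1.25-fold. The strongly expressed list genes Capg, an actin-capping protein gene, and Fth1, the ferritin heavy chain gene, had differences of 0.25 and 0.10.

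**Figure D3:**
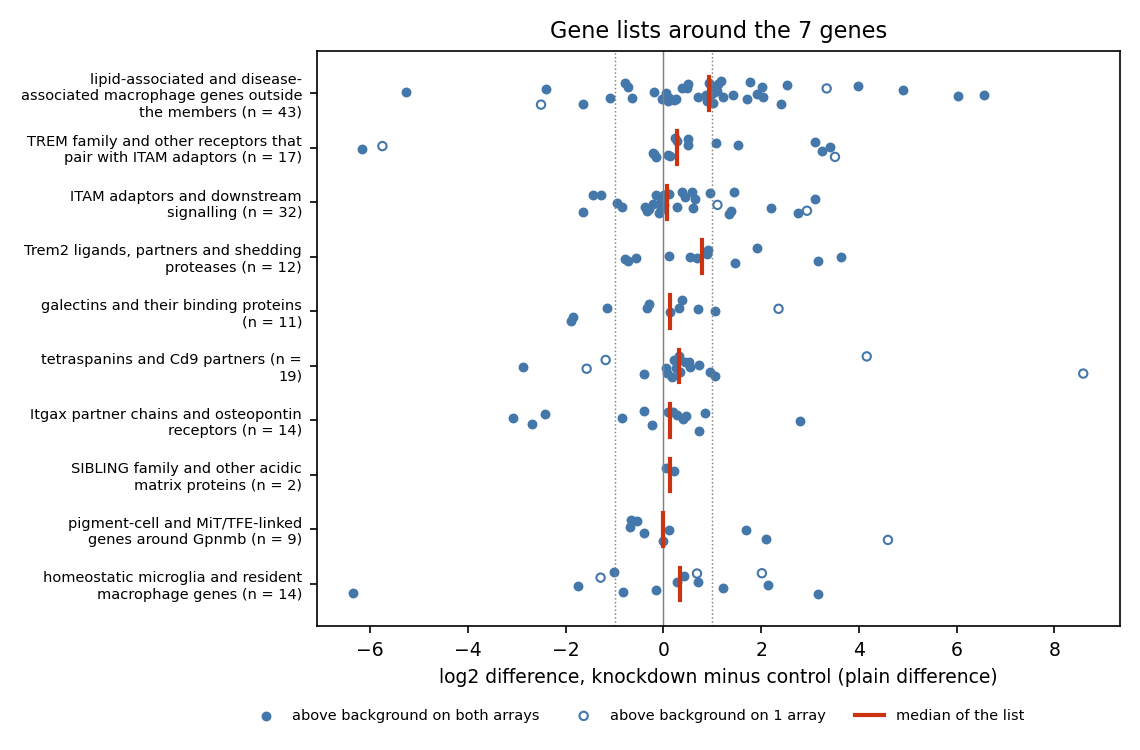
Log2 difference, knockdown minus control, of each measured gene in 10 lists that exclude the 7 members; filled points are above background on both arrays, open points on 1 array, red bars are medians and dotted lines mark 2-fold. The list of lipid-associated and disease-associated macrophage genes has the highest median, 0.93, and the pigment-cell list a median of -0.0084.

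Receptors related to Trem2 were split. Of 17 measured TREM-family and other receptors that pair with ITAM adaptors, 6 were higher by 2-fold or more, 2 lower and 9 between. Their median was 0.27. The shares past 2-fold were 35.3% higher and 11.8% lower, against 8.7% and 8.64% of all measured genes. Trem1, the inflammatory relative of Trem2, had a difference of 0.10. Trem3, dim in the knockdown, was lower by at least 13.7-fold (4.94-fold with normexp). Treml2, dim in the control, was higher by at least 2.69-fold (1.82-fold with normexp). Sirpb1a, a DAP12-coupled receptor gene that the files call Sirpb1, was 10.5-fold higher, with log2 differences of 3.17 to 3.40 over 3 probes. Fcgr1, which encodes the receptor that binds single IgG molecules tightly, was the lowest of the list, at 72.3-fold lower (23.1-fold with normexp). The bright receptor genes Siglech and Cd300ld had differences of -0.15 and -0.22.

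Downstream of DAP12, 8 of 32 measured adaptor and signalling genes were higher by 2-fold or more (6 when genes dim on 1 array are counted by their bound, and 6 with normexp) and 3 lower. The plain shares were 25.0% and 9.38%, beside 8.7% and 8.64% over all measured genes. Syk, the kinase that the ITAM recruits, was 4.61-fold higher, from 1.13 to 3.34. Cblb, a ubiquitin ligase that restrains such signals, was 6.73-fold higher, and the adaptor gene Lat 8.64-fold (4.75-fold with normexp). Src, dim in the control, was higher by at least 1.52-fold. The Src-family kinase gene Fgr was 2.42-fold and the adaptor gene Lcp2 2.73-fold lower, and these were picked with their values in view. Another adaptor gene, Lat2, was 2.71-fold higher and was likewise picked with its value in view. The receptor adaptor genes Fcer1g and Hcst differed less. Fcer1g, the other ITAM adaptor gene, had a difference of 0.60 and Hcst, which encodes the DAP12 partner DAP10, 0.02. Vav1, which encodes a guanine nucleotide exchange factor, had a level of 4.71 on both arrays.

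Genes for TREM2 ligands, partners and shedding proteases included 4 of 12 (33.3%) that were higher by 2-fold or more and none that was lower. Of all measured genes 8.7% were higher and 8.64% lower. The list median was 0.78. Ms4a7, of the MS4A family linked to TREM2 levels, was 12.5-fold higher (7.76-fold with normexp). Clu, clusterin, another lipoprotein ligand of TREM2, was 8.90-fold higher, from -3.21 to -0.06. The sorting receptor gene Sort1 was 3.79-fold and Sema6d, whose product binds the TREM2 partner plexin-A1, 2.76-fold higher. The sheddase genes Adam10 and Adam17 had differences of 0.54 and -0.56, and Anxa1 0.89.

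Around Lgals3, 11 galectin and galectin-related genes were measured, with 2 higher by 2-fold or more (0 with normexp) and 3 lower (2 with normexp). The plain counts were 18.2% and 27.3%, where 8.7% and 8.64% of all measured genes were higher and lower. Lgals1, the other strongly expressed galectin gene, had a difference of 0.38, close to the 0.44 of Lgals3. Lgals9 was 2.24-fold lower, Lgals4 3.62-fold lower (1.83-fold with normexp) and the galectin-like gene Lgalsl 3.72-fold lower. Mgat5, which builds the branched sugars that galectin-3 binds, was dim in the control and higher by at least 2.58-fold (1.47-fold with normexp). Trim16, which acts with galectin-3 on damaged lysosomes, was 2.08-fold higher, and its other probe gave a log2 difference of 0.57. Lamp1, the gene of a heavily glycosylated lysosomal membrane protein, had a difference of 0.31.

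Among 19 measured tetraspanins and partners of CD9, 3 (15.8%) were higher by 2-fold or more, 3 (15.8%) lower (1 with normexp) and 13 between. Their median was 0.33. Of all measured genes 8.7% were higher and 8.64% lower. Tspan7, dim in the control, was higher by at least 87.5-fold, with a level of 0.48 in the knockdown (27.6-fold with normexp). Hbegf, a growth factor gene whose product binds CD9, was likewise higher by at least 4.88-fold (2.07-fold with normexp). Tspan33, dim in the knockdown, was lower by at least 2.23-fold (1.41-fold with normexp), and Tspan9 likewise by at least 2.14-fold (1.26-fold with normexp). Cd63, the late-endosomal tetraspanin gene, was 2.07-fold higher, and Cd82 had a difference of 0.94. Cd81, whose product is a close relative of CD9, was 7.37-fold lower, from 3.63 to 0.75. Cd9 and Cd81 thus lay on opposite sides of 0.

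Of 14 measured integrin chains, osteopontin receptors and ligands of CD11c, 1 (7.14%) was higher by 2-fold or more and 3 (21.4%) were lower. The shares over all measured genes were 8.7% and 8.64%. Itgb3, a chain of the vitronectin and osteopontin receptor, was 6.96-fold higher (4.87-fold with normexp). Itgb5 was 8.50-fold, Itga4 6.42-fold and Icam2 5.40-fold lower. Tln1, which links integrins to actin, had a difference of 0.27. The osteopontin receptor gene Cd44 had a difference of 0.85, and its 3 measured probes gave 0.72 to 1.34. Of the SIBLING family of acidic matrix proteins to which osteopontin belongs, and other such proteins, only 2 genes of 10 were measured, Mepe at 0.22 and Sparc at 0.06.

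Around Gpnmb, the genes of the MiT/TFE factors themselves lay below 0, apart from Tfec. Tfeb and Mitf had differences of -0.69 and -0.67 and Tfe3 -0.39, while Tfec was 4.30-fold higher. Pmel, the pigment-cell paralog of Gpnmb, was not above background on either array. Of 9 measured genes in the pigment-cell and MiT/TFE list 3 (33.3%) were higher by 2-fold or more and none was lower. Over all measured genes the shares were 8.7% and 8.64%. Dct, a melanin enzyme gene, was dim in the control and higher by at least 4.88-fold (2.63-fold with normexp). The 2 measured probes of Trpm1 disagreed, the brighter at 3.21-fold higher and the other at a log2 difference of -0.44.

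Genes of resting microglia and resident macrophages, which lipid-associated cells tend to lose, were split, with 4 of 14 higher by 2-fold or more (2 with normexp) and 4 lower (3 by bound, 1 with normexp). Each plain count was 28.6% of the measured list, beside 8.7% higher and 8.64% lower over all measured genes. Cx3cr1, the fractalkine receptor gene, was 81.6-fold lower, and Csf1r, the growth factor receptor gene, had a difference of -0.82 by its brightest probe, with -1.34 to -0.82 over 3 probes and a median of -1.25. Gas6, the bridging ligand of the receptors AXL and MERTK, was 8.95-fold higher, Tgfbr1 4.42-fold higher, and Fcrls, dim in the control, by at least 3.05-fold (1.41-fold with normexp). The mannose receptor gene Mrc1 was the fourth that was higher, at 2.31-fold (1.69-fold with normexp). Olfml3 was 3.36-fold lower (1.96-fold with normexp) and Mef2c 2.01-fold (1.81-fold with normexp), and Folr2, dim in the knockdown, was lower by at least 1.33-fold (1.26-fold with normexp).

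The labelled cell type was checked against its markers. All 15 macrophage markers were well above background on both arrays, and their summed linear level was 438.2 in the control and 396.1 in the knockdown. Such a sum rests mostly on its brightest genes. Csf1r, the brightest of the 15 in the control, went from 7.47 to 6.65, while Mpeg1 went from 6.15 to 6.88. Of the 15 markers, 4 (26.7%) were higher by 2-fold or more and 2 (13.3%) lower, where 8.7% and 8.64% of all measured genes were. Fcgr3 and Fcgr2b were 2.86-fold and 2.87-fold higher, Cd68 2.33-fold and Msr1 2.32-fold. Adgre1, the F4/80 gene, was 2.95-fold lower. Osteoclasts, which RAW264.7 cells can form, also express Gpnmb and Spp1. Of 11 measured osteoclast markers 3 (27.3%) were higher by 2-fold or more and 5 (45.5%) lower (4 by bound and 4 with normexp). Over all measured genes the shares were 8.7% and 8.64%. The median of these markers was -0.85. The summed level went the other way, from 20.0 to 71.3, and Ctsk and Atp6v0d2 made up most of it in the knockdown. Ctsk, the collagen-degrading cathepsin gene, was 19.1-fold higher, from 1.30 to 5.56, while Car2 was 11.3-fold lower and Tnfrsf11a, the RANK gene, 2.26-fold lower. The others that were higher were Atp6v0d2 and Itgb3, and the others that were lower were the fusion genes Ocstamp and Dcstamp and Calcr, dim in the knockdown and lower by at least 1.88-fold. Their part in the difference of Gpnmb was not tested. None of 6 adipocyte markers was above background, and the source of the high Fabp4 was not tested. Of dendritic cell markers 3 of 11 were measured, of fibroblast markers 2 of 7, of epithelial markers 1 of 7, and of T and B cell markers 2 of 9. Their summed levels went from 43.3 to 19.6, from 0.054 to 0.025, from 0.041 to 0.034 and from 0.42 to 0.41. Cd74, with levels of 5.43 in the control and 4.25 in the knockdown, made up most of the dendritic cell sum. Flt3, Col1a1 and Epcam were not above background on either array. Of 6 endothelial markers 3 were measured, and Vwf, the von Willebrand factor gene, was 30.8-fold higher while Cdh5 was not above background, with summed levels of 5.07 and 16.4.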

How the data were processed

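RNA from 1 control and 1 Lamtor1 knockdown sample of RAW264.7 cells was hybridised to 1-colour arrays. The deposited scanner files give the intensity of each spot on a linear scale, which the submitters' processing notes credit to Agilent Feature Extraction 10.7.3.1. The intensity was detrended within the array, per the file headers, and 1 slide and 1 scan held both arrays. The deposited value table held the same intensity (ratio 0.9951 to 1.005, column medians 28.0 and 27.8), linear and uncentred.

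Outlier spots (297) were left out, and log2 of the processed signal was taken minus the 75th percentile of the 43020 spots that were not controls (1172 on the control, 1255 on the knockdown array). Of these spots 53.3% and 52.9% were well above background. A probe was measured where, on either array, over 50% of its spots passed the scanner's flag for this, and a gene name took its brightest probe. Where a gene passed on 1 array only, its bound uses, on the dim array, the lowest signal that passed or the probe's own, whichever was higher.

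Of 281 list genes 277 had a probe, 13 of them matched by accession through a RefSeq table (GRCm38.p6). Named from each list are up to 4 genes with the largest difference and up to 2 of the brightest others. Further genes were named for their role, or to complete a count, with their values in view. Some genes the rule names, and a probe sequence, are not reported here. The members and lists were chosen with earlier results of these data known. The number of arrays limits the precision. The calculation was tested on simulated data. Python 3.11.15, R 4.3.3 and limma 3.58.1 (normexp with offset 50, quantile, cyclic loess) were used.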

Additional observations from a re-analysis of the deposited data

How the results depend on the processing

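Of the 7 members, counts at 2-fold were 1 higher and 0 lower under every alternative run. The counts over all measured genes, 1523 higher and 1514 lower, changed by over 1.5 times with normexp (902 higher, 712 lower), with only genes above background on both arrays (911 higher, 844 lower) and, for lower genes, without a filter on dim probes (2453). Over the lists around the members, each gene once, 50 of 167 (29.9%) were higher and 23 (13.8%) lower, against 8.7% and 8.64% of all measured genes. The list counts ran from 41 to 55 and from 16 to 28. With the list genes of known value left out, an alternative added after the data were seen, they were 44 and 21. Median scaling shifted all differences by 0.09. No paired analysis was possible because each group has 1 array. Leaving out a replicate could not be run for the same reason.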
